A study of Mus musculus with 4 samples.

Results

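The 10 genes described here encode the machinery that puts peptides on MHC class I molecules: B2m, H2-K1, H2-D1, Tap1, Tap2, Tapbp, Psmb8, Psmb9, Nlrc5 and Erap1. They were taken by symbol from the 33565 genes of the deposited matrices, and all 10 were found. Their RNA was measured by CapSeq, a split-pool single-cell RNA-seq method, in 3 mouse lines that were barcoded together in 1 library and separated by BC1, the barcode added on the opening plate. N2a (Neuro-2a) is a neuroblastoma line and NIH/3T3 an embryonic fibroblast line, both grown in medium with 10% fetal bovine serum (FBS). The mESCs were of the embryonic stem cell line E14TG2a, grown on 0.15% gelatin with 15% FBS, leukemia inhibitory factor at 1000 U/mL, 3 µM CHIR99021 (a GSK3 inhibitor) and 1 µM PD0325901 (a MEK inhibitor). No genotype change, interferon or other immune treatment is named for any line, and antibiotics were in all media. N2a occupied BC1 columns 1 to 4, NIH/3T3 columns 5 to 8 and mESCs columns 9 to 12.

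Cells were barcodes with at least 1000 unique molecular identifiers (UMIs, 1 per captured transcript) and at most 20% mitochondrial UMIs. N2a had 2323 cells with 17955221 UMIs (median 6185 per cell), NIH/3T3 2037 cells with 11697865 UMIs (median 4863) and mESCs 2137 cells with 12322098 UMIs (median 4803). No barcode was shared between lines (0 barcodes), which the split by BC1 fixed in advance. Levels are given in CPM, the UMIs of a gene scaled to the same total of UMIs in each line after summing over its cells. Since a line was represented by 1 library, lines were not tested against each other, and the 95% intervals (exact Poisson for levels, exact binomial for shares and ratios) cover counting error only. All 4 NIH/3T3 markers checked were at 233 CPM or more in that line, although Fn1 was higher in mESCs (642 CPM) than in NIH/3T3 (411 CPM), and all 4 mESC markers were highest in mESCs. Among the markers taken for N2a, Hand2 stood at 404 CPM, whereas Gata3 was near 0 (3.84 CPM). In the lines that should lack them, the 8 markers restricted to a line (Hand2, Col1a2, Cav1, Prrx1, Zfp42, Dppa5a, Pou5f1 and Tdgf1) were read at 0.0592% to 0.624% of their level in their own line.

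MHC class I molecules show peptides from proteins made inside the cell to CD8+ T cells, and natural killer cells respond to their absence. Proteasomes cut proteins into peptides, the TAP transporter carries these into the endoplasmic reticulum (ER), ER aminopeptidases trim them, and tapasin holds the empty heavy chain and β2-microglobulin at the transporter until a peptide binds. Interferon-γ raises most of these genes, through IRF1 and the transactivator NLRC5. Pluripotent stem cells are known for low surface class I.

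Apart from B2m on chromosome 2, Erap1 on chromosome 13 and Nlrc5 on chromosome 8, the members lie in the MHC on chromosome 17. RefSeq promoter windows (GRCm38.p6) were found for 8 of the 10 members, and not for Tap2 and Nlrc5. The 250 bases upstream of the start are printed for H2-K1, H2-D1, B2m and Psmb8. H2-K1 and H2-D1 are classical heavy chains, and each pairs separately with β2-microglobulin. Across the lines B2m and H2-D1 had the same order and H2-K1 another. Psmb8 was read almost entirely in N2a. Capitals mark matches, on either strand, to 4 motifs: AANNGAAA (the core of IRF sites), GGGNNTTCC (a kappa B site), TTCNNNGAA (a STAT site) and CCAAT (the NF-Y box).
H2-K1, chr17:34000348-34000597, minus strand: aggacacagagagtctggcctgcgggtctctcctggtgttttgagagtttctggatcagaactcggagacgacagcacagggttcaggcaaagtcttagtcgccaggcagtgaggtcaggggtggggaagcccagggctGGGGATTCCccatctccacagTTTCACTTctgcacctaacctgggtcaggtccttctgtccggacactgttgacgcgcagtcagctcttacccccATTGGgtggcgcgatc
H2-D1, chr17:35262844-35263093, plus strand: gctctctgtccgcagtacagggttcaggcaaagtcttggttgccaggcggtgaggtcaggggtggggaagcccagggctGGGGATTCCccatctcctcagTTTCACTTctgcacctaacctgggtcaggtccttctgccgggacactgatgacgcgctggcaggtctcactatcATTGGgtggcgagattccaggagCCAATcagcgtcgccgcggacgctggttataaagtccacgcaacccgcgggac
B2m, chr2:122147437-122147686, plus strand: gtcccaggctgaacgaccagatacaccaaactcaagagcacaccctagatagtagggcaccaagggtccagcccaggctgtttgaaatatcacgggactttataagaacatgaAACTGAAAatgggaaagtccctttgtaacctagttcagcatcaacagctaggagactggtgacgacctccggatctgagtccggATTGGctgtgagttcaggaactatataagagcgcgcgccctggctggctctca
Psmb8, chr17:34197945-34198194, plus strand: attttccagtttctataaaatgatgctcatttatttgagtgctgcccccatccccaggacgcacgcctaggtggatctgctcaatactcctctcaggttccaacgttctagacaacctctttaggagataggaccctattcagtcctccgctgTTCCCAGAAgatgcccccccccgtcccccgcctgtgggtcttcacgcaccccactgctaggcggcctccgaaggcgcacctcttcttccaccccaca
The H2-K1 and H2-D1 windows were alike in 170 of 190 aligned bases (89.5%), and both held the kappa B match GGGGATTCC and the IRF match TTTCACTT, at 111 and 90 bases before the start of H2-K1 and at 171 and 150 bases before that of H2-D1. The B2m window held the IRF match AACTGAAA and a CCAAT match, and the Psmb8 window the STAT match TTCCCAGAA. Among 32851 RefSeq windows of the same length, AANNGAAA occurred in 21.3%, GGGNNTTCC in 4.98%, TTCNNNGAA in 7.02% and CCAAT in 33.8%. Of the 8 member windows, AANNGAAA occurred in 3 (B2m, H2-K1, H2-D1), GGGNNTTCC in 2 (H2-K1, H2-D1), TTCNNNGAA in 1 (Psmb8) and CCAAT in 6. Tap1 and Psmb9 lie head to head, and 225 bases of their 250-base windows are the same DNA. These matches are descriptions of the printed letters only.

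Summed over the 10 members, the level was 767.9 CPM in NIH/3T3 (752.1 to 784.0), 435.7 CPM in N2a (95% interval 426.1 to 445.5) and 48.8 CPM in mESCs (45.0 to 52.8). The mESCs were thus lowest for the set as a whole, and B2m and H2-D1 made up most of the NIH/3T3 sum. N2a and NIH/3T3 did not differ in 1 direction: H2-K1 and Psmb8 were far higher in N2a, and B2m, H2-D1 and Tapbp were higher in NIH/3T3. In the plot of levels per line, Tap1, Tap2, Erap1 and Psmb9 are the genes at which the N2a and NIH/3T3 intervals overlap.

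**Figure D1:**
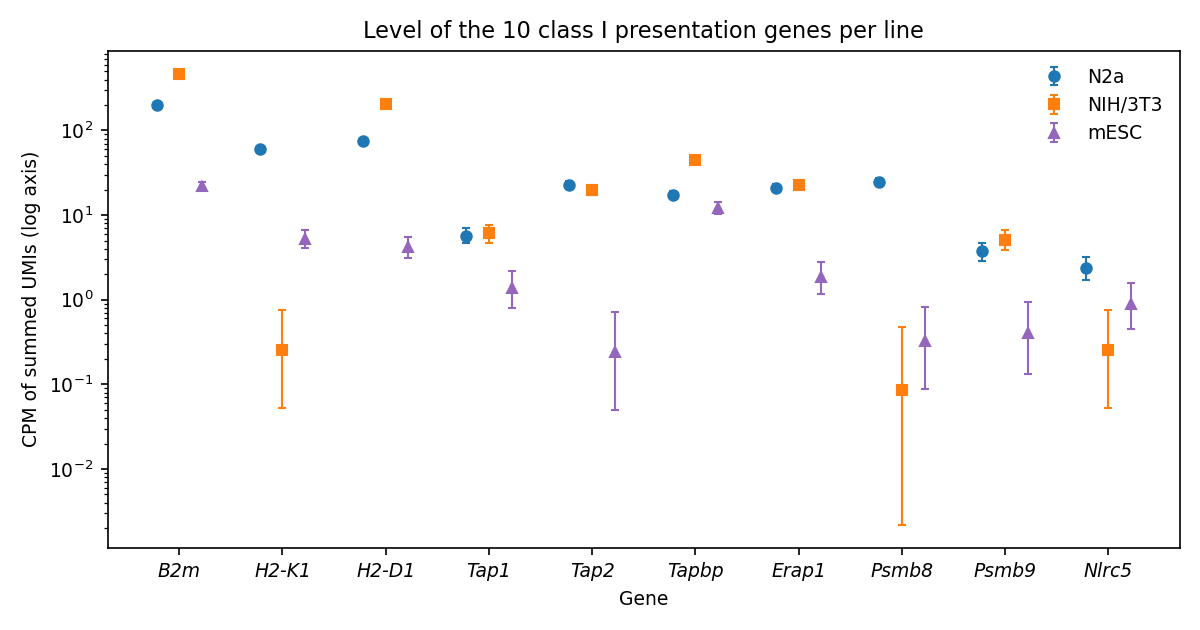
Level of each member per line, as CPM of summed UMIs on a log axis, with 95% exact Poisson intervals (counting error only) for N2a (circles), NIH/3T3 (squares) and mESCs (triangles). The mESC point is lowest for 7 of the 10 genes, and the NIH/3T3 point is lowest for H2-K1, Psmb8 and Nlrc5.

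A gene was counted as higher in a line at 2-fold or more on the CPM + 1 scale, among genes with at least 5 CPM in either line of a pair. Between N2a and NIH/3T3, 2 of 9 such members (H2-K1, Psmb8) were higher in N2a, where 20% of all 11812 genes were, and 3 of 9 (B2m, H2-D1, Tapbp) were higher in NIH/3T3, where 18.5% of all genes were. These shares are near the background. Between mESCs and NIH/3T3, 7 of 8 members were higher in NIH/3T3, against 21.7% of 12067 genes, and 1 of 8 (H2-K1) was higher in mESCs, against 22.8%. Between mESCs and N2a, 7 of 8 were higher in N2a, against 22.3% of 12245 genes, and 0 of 8 were higher in mESCs, against 21%. The exception in that pair was Tapbp. The median log2 ratio of the members counted was -0.10 for N2a over NIH/3T3, -2.58 for mESCs over NIH/3T3 and -3.22 for mESCs over N2a, where the medians of all genes counted were 0.04, -0.01 and -0.05. The 5 CPM minimum left out Nlrc5 in all pairs, Psmb8 between mESCs and NIH/3T3, and Psmb9 between mESCs and N2a.

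**Figure D2:**
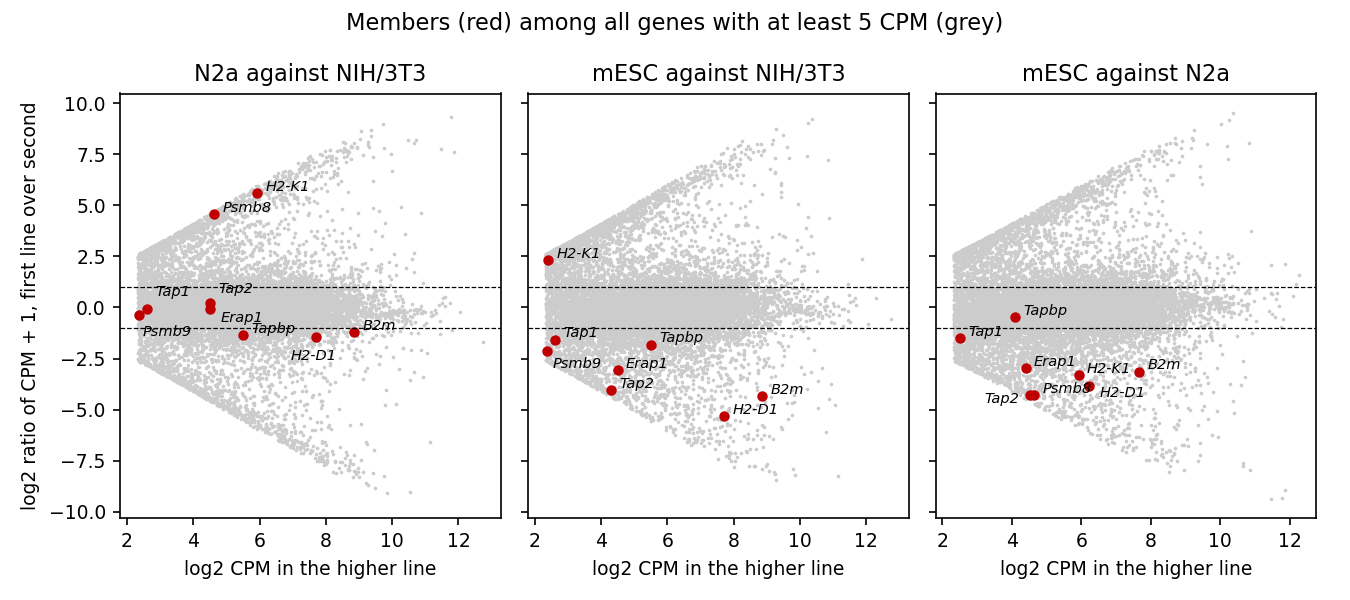
Log2 ratio of CPM + 1 for each pair of lines against log2 CPM in the higher line, for all genes with at least 5 CPM in either line (grey) and the members among them (red), with dashed lines at 2-fold. The members straddle 0 for N2a against NIH/3T3, and all but H2-K1 (against NIH/3T3) lie below 0 for mESCs.

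B2m encodes β2-microglobulin, the light chain that pairs with classical class I heavy chains. It stood at 460.5 CPM in NIH/3T3, 202 CPM in N2a and 22.1 CPM in mESCs. The order was NIH/3T3, N2a, mESC without overlap of the intervals. NIH/3T3 was 2.28 times N2a (2.18 to 2.38) and 20.9 times mESCs (18.5 to 23.7), and N2a was 9.16 times mESCs (8.09 to 10.4). The 32 BC1 sequences of a line are wells of 1 suspension and show technical spread only. Over them, B2m ranged from 9.24 to 45.9 CPM in mESCs, from 179 to 248 CPM in N2a and from 381 to 544 CPM in NIH/3T3, so the lines did not overlap.

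H2-D1, 1 of the classical heavy chains that bind the peptide, followed the same order. Its level was 208 CPM in NIH/3T3, 74.8 CPM in N2a and 4.22 CPM in mESCs. NIH/3T3 was 2.78 times N2a (2.60 to 2.98) and 49.3 times mESCs (37.5 to 66.2). Across BC1 sequences it ranged from 0 to 13.3 CPM in mESCs, from 47.5 to 106 CPM in N2a and from 150 to 261 CPM in NIH/3T3, again without overlap.

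H2-K1, the other classical heavy chain measured, had a different order. It stood at 60.8 CPM in N2a (1092 UMIs), 5.28 CPM in mESCs (65 UMIs) and 0.256 CPM in NIH/3T3 (3 UMIs). The fibroblasts, highest for B2m and H2-D1, were lowest for H2-K1, and 29 of their 32 BC1 sequences held no H2-K1 UMI. N2a was 237 times NIH/3T3 (80.9 to 1152) and 11.5 times mESCs (8.97 to 15.0), and mESCs were 20.6 times NIH/3T3 (6.73 to 102). The NIH/3T3 reading was 0.422% of the N2a level, inside the range at which restricted markers were read in other lines. The mESC readings of B2m (4.79% of NIH/3T3), H2-D1 (2.03% of NIH/3T3) and H2-K1 (8.67% of N2a) were above that range.

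The heavy chains resemble each other and other class I genes, so their counts are uncertain where reads could be split or dropped. Of all 89-base windows in the annotated transcript, 3 of 1531 (0.196%) of H2-K1 and 112 of 2029 (5.52%) of H2-D1 occurred in another gene's transcript, and the H2-K1 and H2-D1 transcripts were alike in 90.5% of aligned bases. The reference is the C57BL/6J genome, whereas N2a derives from strain A, NIH/3T3 from NIH Swiss and E14TG2a from strain 129 mice, and the part of strain alleles in these counts was not tested.

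**Figure D3:**
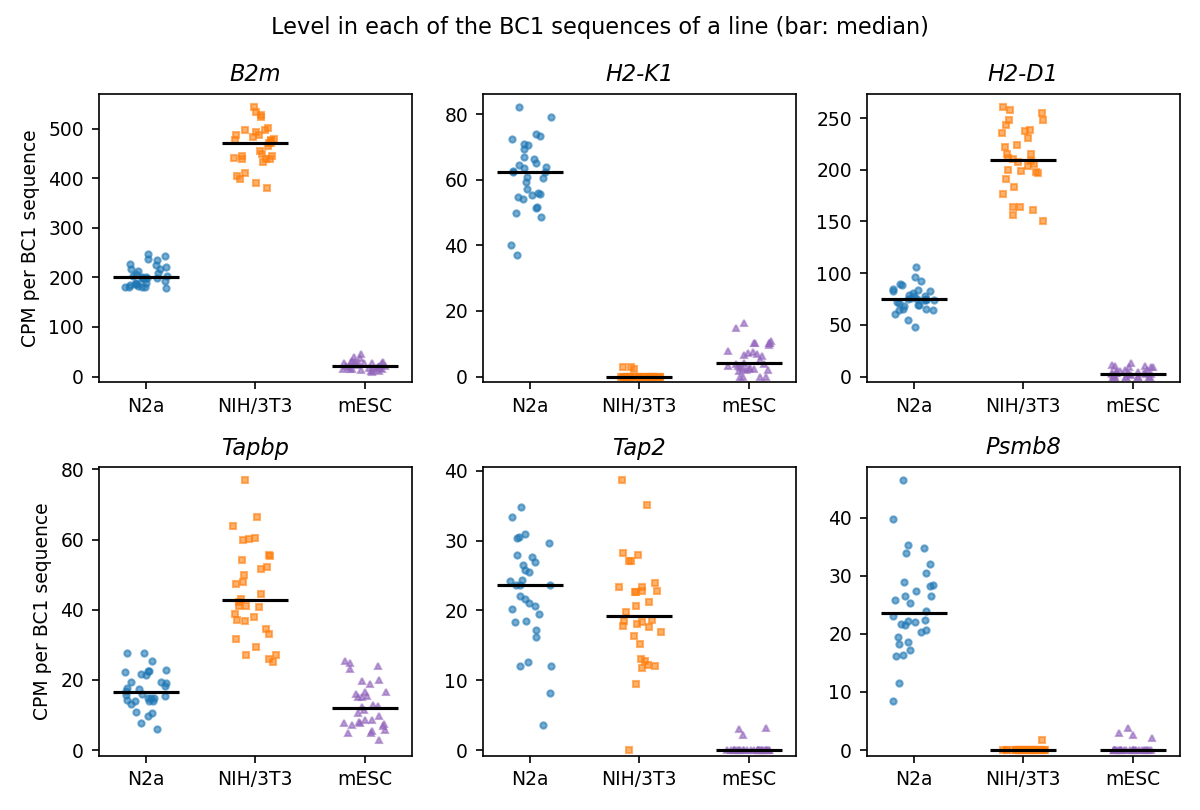
CPM of 6 members in each of the 32 BC1 sequences of a line, with the median as a bar, on linear axes that differ between panels. B2m and H2-D1 separate all 3 lines, H2-K1 and Psmb8 are at 0 in most NIH/3T3 sequences, and Tap2 is at 0 in 29 of 32 mESC sequences.

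Psmb8 and Psmb9 encode catalytic subunits of the immunoproteasome, which replace Psmb5 and Psmb6 and favour peptide ends that suit class I. Psmb8 was read at 0.0855 CPM in NIH/3T3 (1 UMI), 24.9 CPM in N2a (447 UMIs) and 0.325 CPM in mESCs (4 UMIs). It was thus almost restricted to N2a, at 291 times NIH/3T3 (52.0 to 11528) and 76.7 times mESCs (29.7 to 283). The single NIH/3T3 UMI corresponds to 0.343% of the N2a level, inside the range of restricted markers. Across BC1 sequences Psmb8 ranged from 8.51 to 46.4 CPM in N2a, while 31 of 32 sequences in NIH/3T3 and 28 of 32 in mESCs were at 0.

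Psmb9 did not share that pattern. It stood at 5.13 CPM in NIH/3T3, 3.73 CPM in N2a and 0.406 CPM in mESCs (5 UMIs). The ratio of NIH/3T3 to N2a was 1.37 with an interval that includes 1 (0.954 to 1.98), and NIH/3T3 was 12.6 times mESCs (5.13 to 40.3). For each 100 UMIs of the constitutive subunit Psmb5, Psmb8 had 15.1 UMIs in N2a (13.6 to 16.6), 0.161 in mESCs (0.0438 to 0.412) and 0.0465 in NIH/3T3 (0.00118 to 0.259). For each 100 UMIs of Psmb6, Psmb9 had 1.95 in N2a, 0.139 in mESCs and 1.94 in NIH/3T3. Psmb10, the remaining immunoproteasome catalytic subunit, had 22.5 UMIs per 100 of Psmb7 in N2a, against 5.47 in mESCs and 19.9 in NIH/3T3. NIH/3T3 therefore carried Psmb9 and Psmb10 at ratios near those of N2a without Psmb8, and all 3 ratios were lower in mESCs than in N2a. None of the proteasome subunits and activators examined beside the members was past 2-fold between N2a and NIH/3T3 (0 of 9 in each direction, against 20% and 18.5% of all genes), and 3 of 9 were lower in mESCs than in NIH/3T3, against 21.7% of all genes: Psmb10, the activator subunit Psme2 and the assembly factor Pomp. Psmb10 and Psme2 were also lower in mESCs than in N2a (2 of 9), a share near the 22.3% of all genes. Among the most abundant of that list, the activator Psme4 (354, 491 and 565 CPM in N2a, NIH/3T3 and mESCs), Psmb6 (192, 265 and 292 CPM) and Psmb7 (196, 206 and 228 CPM) were highest in mESCs, and Pomp stood at 175, 325 and 150 CPM.

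Tap1 and Tap2 form the transporter. Tap1 stood at 6.07 CPM in NIH/3T3, 5.74 CPM in N2a and 1.38 CPM in mESCs (17 UMIs), and Tap2 at 19.7 CPM in NIH/3T3, 22.9 CPM in N2a and 0.243 CPM in mESCs (3 UMIs). For both genes the interval of the N2a to NIH/3T3 ratio includes 1 (0.692 to 1.30 for Tap1, 0.991 to 1.38 for Tap2). Against mESCs, N2a was 4.16 times higher for Tap1 (2.47 to 7.41) and 94.2 times higher for Tap2 (32.0 to 459). The mESC level of Tap2 was 1.06% of that of N2a (0.218% to 3.12%), an interval that reaches into the range of restricted markers, so Tap2 in mESCs could not be told from the level at which restricted markers were read in other lines. Tap1 and Psmb9 overlap on opposite strands over 743 bases of the GENCODE M39 annotation, a later release than that used for the counts. The strand setting of the counting is not given in the sources used here, so reads from that stretch are uncertain for both genes.

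Erap1, the ER aminopeptidase that trims peptides to length, was likewise low in mESCs only. It stood at 22.7 CPM in NIH/3T3, 21.1 CPM in N2a and 1.87 CPM in mESCs (23 UMIs). N2a was 0.932 times NIH/3T3 (0.794 to 1.09) and 11.3 times mESCs (7.42 to 18.1). Tapbp, which encodes tapasin, was the member least reduced in mESCs against N2a. Its level was 45.1 CPM in NIH/3T3, 17.2 CPM in N2a and 12.1 CPM in mESCs, so that NIH/3T3 was 2.63 times N2a (2.28 to 3.04) and N2a only 1.42 times mESCs (1.16 to 1.74). Over BC1 sequences Tapbp ranged from 2.94 to 25.5 CPM in mESCs, from 6.03 to 27.8 CPM in N2a and from 25.05 to 77.0 CPM in NIH/3T3, so that all 3 ranges touched or overlapped.

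The RNAs of 4 general ER folding proteins were abundant in all lines. Canx (calnexin) stood at 906, 1165 and 602 CPM in N2a, NIH/3T3 and mESCs, Calr (calreticulin) at 543, 623 and 476 CPM, Pdia3 at 496, 543 and 321 CPM, and Hspa5 at 759, 678 and 424 CPM. None of these 4 was past 2-fold in any pair, where 18.5% to 22.8% of all genes were, by pair and direction. The exception on that list was Tapbpl, which encodes the peptide editor TAPBPR, at 1.17, 9.40 and 0.893 CPM, higher in NIH/3T3 than in both other lines. Of 6 peptidases outside the ER pathway of Erap1, only Lap3 was past 2-fold in any pair. Lap3 was higher in mESCs (380 CPM) than in N2a (117 CPM) and NIH/3T3 (116 CPM). Over all genes, 21% and 22.8% were higher in mESCs in those pairs. The other most abundant peptidases, Lnpep (225, 202 and 277 CPM), Npepps (182, 194 and 275 CPM) and Tpp2 (248, 191 and 195 CPM), were within 2-fold.

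Nlrc5, the transactivator of class I genes, was the lowest member in N2a UMIs, with 43 UMIs (2.39 CPM). It had 3 UMIs in NIH/3T3 (0.256 CPM) and 11 in mESCs (0.893 CPM). N2a was 9.34 times NIH/3T3 (2.99 to 47.1) and 2.68 times mESCs (1.36 to 5.77), and the mESC to NIH/3T3 ratio had an interval that includes 1 (0.920 to 19.4). The line with the most B2m and H2-D1 thus had the fewest Nlrc5 UMIs. Among 11 other regulators of class I promoters, 2 were higher in NIH/3T3 than in both other lines: Nfkb1, an NF-κB subunit (92.2, 297 and 41.6 CPM in N2a, NIH/3T3 and mESCs), and Irf1, an interferon-response factor (8.41, 29.8 and 9.58 CPM). Irf2, which binds the same kind of site as Irf1, stood at 82.7 CPM in NIH/3T3, 145 CPM in N2a and 2.84 CPM in mESCs, so that mESCs had 1.96% of the N2a level (1.36% to 2.73%). The products of Nfyc and Creb1 act at class I promoters beside NLRC5. Nfyc was highest in mESCs (64.2, 109 and 133 CPM). Creb1 was lowest in mESCs, but within 2-fold of the other lines (99.5, 83.8 and 71.8 CPM). Over the list, 1 of 10 regulators was higher in N2a and 2 of 10 were higher in NIH/3T3 between those lines. For mESCs, 4 of 11 were lower and 2 of 11 higher than in NIH/3T3, and 3 of 11 were lower and 2 of 11 higher than in N2a. Over all genes the shares were 20% and 18.5% between N2a and NIH/3T3, 21.7% lower and 22.8% higher in mESCs than in NIH/3T3, and 22.3% lower and 21% higher in mESCs than in N2a, so most of these counts are near the background.

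H2-K1 and Psmb8 have close neighbours that were read in NIH/3T3. On chromosome 17 of GRCm39, H2-K1 (34214987 to 34219321, minus strand) lies between Vps52, at 15.2, 15.8 and 16.1 CPM in N2a, NIH/3T3 and mESCs, and Ring1, at 11.7, 20.3 and 7.30 CPM. Psmb8 (34416690 to 34420428, plus strand) lies between Tap1 and Tap2, both of which had N2a to NIH/3T3 ratios near 1. In the plot of neighbouring genes, the low NIH/3T3 levels are thus at single genes with read neighbours on both sides. H2-D1 lies further along at 35481691 to 35486475. B2m is at 121977957 to 121983594 on chromosome 2, Erap1 at 74787687 to 74841320 on chromosome 13 and Nlrc5 at 95160984 to 95253900 on chromosome 8.

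**Figure D4:**
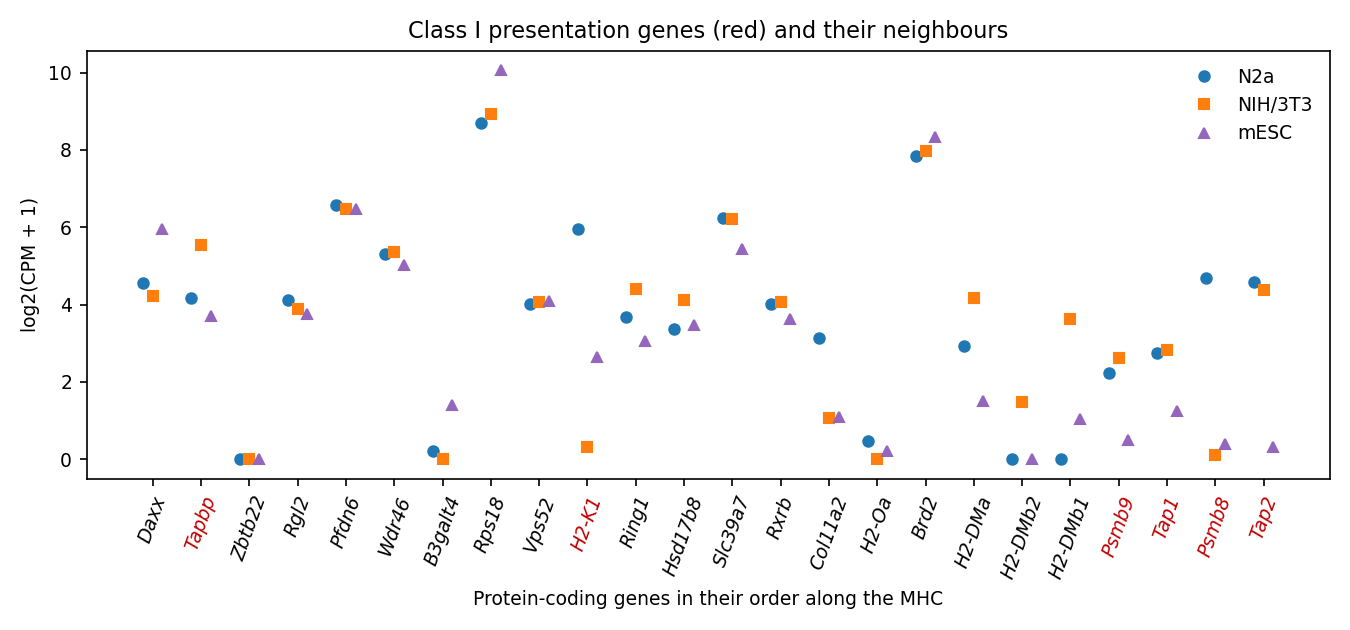
Level of protein-coding genes in their order along the MHC from Daxx to Tap2, as log2(CPM + 1), for the 3 lines, with members named in red. In NIH/3T3 H2-K1 and Psmb8 are near 0 while Vps52, Ring1, Tap1 and Tap2 are above 5 CPM.

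The share of cells with at least 1 UMI depends on depth, so each cell was also thinned to 1000 UMIs, the minimum of the filter, which left out no cell. After thinning, B2m was detected in 18.6% of N2a cells (17.0% to 20.2%), 35.5% of NIH/3T3 cells (33.5% to 37.7%) and 2.20% of mESCs (1.62% to 2.91%). Before thinning these shares were 64.4%, 81.1% and 10.6%. H2-D1 was detected in 6.76%, 19.8% and 0.608% of thinned cells, and in 37.6%, 60.5% and 2.25% before thinning. H2-K1 was detected in 5.94% of thinned N2a cells and 0.421% of mESCs, and in 0 of 2037 NIH/3T3 cells (exact upper limit 0.181%). Before thinning, H2-K1 was found in 31.8% of N2a cells and 2.90% of mESCs, and in 3 NIH/3T3 cells with 1 UMI each. Thinned shares of Psmb8 were 2.93% in N2a, 0 of 2037 cells in NIH/3T3 and 0.0468% (1 cell) in mESCs.

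**Figure D5:**
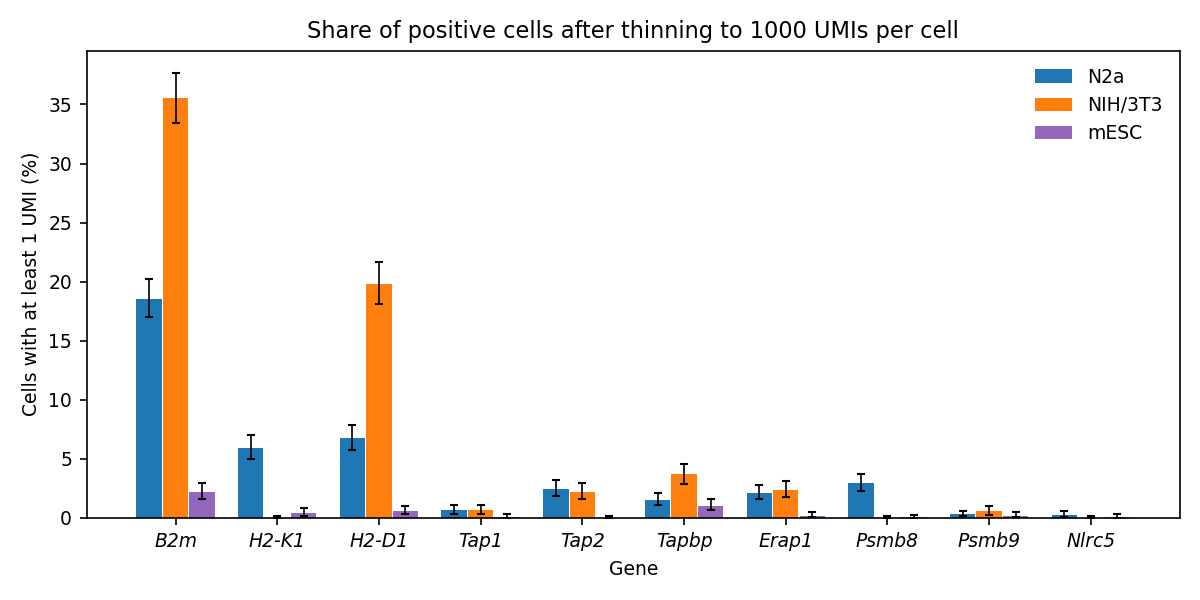
Percent of cells with at least 1 UMI of each member after thinning every cell to 1000 UMIs, with 95% exact binomial intervals (counting error only). NIH/3T3 bars are highest for B2m, H2-D1 and Tapbp, N2a bars for H2-K1 and Psmb8, and mESC bars are at or below 2.20% throughout.

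In the full-depth cells, 906 N2a cells, 1220 NIH/3T3 cells and 37 mESCs held 2 or more B2m UMIs, with at most 14, 16 and 4 in a cell. After thinning, no member was found in 65.6% of N2a cells, 47.1% of NIH/3T3 cells and 95.2% of mESCs. Cells with and without a member were compared where at least 50 thinned cells of a line held it. The other member of a pair could be in fewer cells. B2m with H2-D1 was the pair with most cells. Of the 404 thinned NIH/3T3 cells with H2-D1, 38.1% held B2m (33.4% to 43.1%), against 34.9% of those without (32.6% to 37.3%). Of the 157 thinned N2a cells with H2-D1, 24.2% held B2m (17.7% to 31.7%), against 18.1% of those without (16.5% to 19.8%). In N2a, B2m was held by 23.9% of cells with H2-K1 (17.1% to 31.9%), against 18.2% of those without, by 26.3% of cells with Tap2 (15.5% to 39.7%), against 18.4%, and by 17.6% of cells with Psmb8 (9.46% to 28.8%), against 18.6%. The intervals with and without the other gene overlapped in all 45 comparisons in N2a and all 27 in NIH/3T3. Each pair was compared in both directions where both genes sufficed. For H2-K1, Psmb8 and Nlrc5 in NIH/3T3 the overlap was fixed in advance, because each was in 0 thinned cells. Other members were in few thinned cells. Differences of this size were thus not resolved at this depth. When the cells of each line were divided into 3 equal groups by total UMIs, B2m stayed between 448 and 469 CPM in NIH/3T3, between 198 and 211 CPM in N2a and between 19.5 and 25.5 CPM in mESCs. Over all members, 17 of 30 levels in the shallowest group and 11 of 30 in the middle group lay outside the counting interval of the whole line. For 3 of them, all in the shallowest N2a cells, the interval of the group itself excluded the level of the line. In those cells H2-D1 stood at 61.8 CPM (51.5 to 73.6), Tap2 at 16.2 CPM (11.1 to 22.7) and Psmb8 at 34.8 CPM (27.2 to 43.9), against 74.8, 22.9 and 24.9 CPM in all N2a cells.

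Interferon target genes outside the pathway were near 0 in all lines, with exceptions. Of 10 such genes, 7 were below 5 CPM in every line. Bst2 (tetherin) stood at 54.7 CPM in N2a, 6.98 CPM in mESCs and 0 UMIs in NIH/3T3, which allows up to 0.256 CPM, the order seen for H2-K1. Ifi35 stood at 19.99, 15.5 and 3.49 CPM in N2a, NIH/3T3 and mESCs, and Isg15 at 3.12 and 8.21 CPM in N2a and NIH/3T3 and at 0 UMIs in mESCs, which allows up to 0.243 CPM. The interferon receptor chains and their kinases were read in all lines, with Jak1 at 235, 295 and 122 CPM and Ifngr2, a chain of the interferon-γ receptor, at 30.2, 48.1 and 2.35 CPM. Of the 10 receptor and signal genes, 1 (Ifngr2) was lower in mESCs than in N2a and 4 were lower in mESCs than in NIH/3T3. In either pair, 0 were higher in mESCs. Over all genes 22.3% and 21.7% were lower in mESCs, and 21% and 22.8% were higher.

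Of 17 other heavy chains in the matrices that are class I or pair with β2-microglobulin, 12 were below 5 CPM in every line. H2-M5, a nonclassical class I gene, was highest in mESCs. It stood at 97.7 CPM in mESCs, 1.89 CPM in N2a and 0.513 CPM in NIH/3T3, so that mESCs were 51.6 times N2a (36.7 to 74.9) and 190.5 times NIH/3T3 (87.3 to 520). It was found in 35.5% of mESCs at full depth. Mr1, which presents vitamin metabolites, stood at 6.85, 10.0 and 0.162 CPM in N2a, NIH/3T3 and mESCs, Fcgrt at 8.69, 8.21 and 6.82 CPM, and Cd1d1, which presents lipids, at 2.39, 0.0855 and 5.44 CPM. The fifth gene of that list above 5 CPM in a line was H2-M3, which presents formylated peptides, at 6.07, 0.940 and 0.325 CPM. Ligands of natural killer cell receptors did not follow the members as a group. Ulbp1 (26.9, 173 and 9.09 CPM), Raet1e (10.7, 25.7 and 2.84 CPM) and Pvr (21.7, 71.9 and 34.5 CPM) were past 2-fold higher in NIH/3T3 than in both other lines, and Nectin2 (9.52, 10.2 and 70.6 CPM) was higher in mESCs. Of the 4 ligands counted in each pair, 3 were higher in NIH/3T3 and 0 in N2a between those, against 18.5% and 20% of all genes. Between mESCs and NIH/3T3, 3 were higher in NIH/3T3 and 1 in mESCs (21.7% and 22.8% of all genes). Between mESCs and N2a, 2 were higher in N2a and 1 in mESCs (22.3% and 21%).

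Class II genes and markers of immune cells were low. Of 8 class II genes, H2-DMa had the highest sum, at 6.63, 17.0 and 1.87 CPM in N2a, NIH/3T3 and mESCs, and H2-DMb1 stood at 11.3 CPM in NIH/3T3. The 8 immune cell markers summed to 11.5 CPM in NIH/3T3, 11.6 CPM in N2a and 21.4 CPM in mESCs, mostly from Cd79a and Cd68. Ptprc, Tyrobp and C1qa, which mark leukocytes, myeloid cells and macrophages, were at 0 UMIs in NIH/3T3 and mESCs and at 0.111, 0.0557 and 0.0557 CPM in N2a.

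The genes whose pattern over the 3 lines was most like that of a member were sought by the distance of centred log2(CPM + 1) values among 9522 genes with at least 20 CPM in a line. For B2m these were Kcnab2, Cxcl1 and BC023719, at distances of 0.0696, 0.114 and 0.118. For H2-K1 they were Dock10, Arhgef3 and Pdlim3, at 0.0508, 0.119 and 0.226, and for H2-D1 they were Glipr1, Acsl5 and Sh3bgrl, at 0.0652, 0.217 and 0.257. With 3 lines, many genes can be close by this measure. No other member was among the 3 closest genes of B2m, H2-K1 or H2-D1.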

How the data were processed

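The measurement was polyA RNA in single cells of 3 mouse lines. Per the methods, the authors removed template switching oligo sequence from the reads and used STARsolo to align and count them on GRCm39, in an index-based regime for the pooled matrix and a BC1-based regime for the sample-resolved matrices. The deposited values are UMI counts as STARsolo wrote them, not normalized and with all barcodes kept. STARsolo's feature mode, strand setting and treatment of reads matching several genes are not given in the sources used here. A pooled matrix of the same reads served as an alternative only.

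The filter was that of the methods. Depth is given with the results, and 1 UMI equals 0.0855 CPM in NIH/3T3, 0.0812 in mESCs and 0.0557 in N2a. A count of 0 was taken to allow 3 UMIs. The members and gene lists were chosen with earlier results of these data known, and 124 of 128 listed genes were in the matrices. Named genes were all members, per list up to 4 genes with the highest summed CPM and any past 2-fold against both other lines at 20 CPM or more, and the 3 genes most like B2m, H2-K1 and H2-D1. Other genes were named after their values were seen. Doublets were not called. Some listed genes are not reported here. The 2-cell-stage genes and the groups by depth and within mESCs were chosen after seeing the data. Gene positions and transcripts are from GENCODE M39 (32953 of 33565 identifiers found) and promoters from RefSeq. The authors counted reads on an earlier GENCODE release. Ratio intervals, calls and thinning were tested on simulated data, in which the changed genes were drawn at 20 CPM or more. Intervals of levels and lower counts were not covered. The tools were scipy 1.17.1, numpy 2.4.6, Biopython 1.88 and pandas 2.3.3 under Python 3.11.15.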

Additional observations from a re-analysis of the deposited data

Results flagged for a closer look

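UMIs of the 10 members also lay outside the cells used above. Barcodes below the filter held 1134 member UMIs in the N2a matrix (419 CPM, against 435.7 CPM in cells), 1072 in the NIH/3T3 matrix (593 CPM, against 767.9 CPM) and 117 in the mESC matrix (75.3 CPM, against 48.8 CPM). B2m alone stood at 188, 348 and 40.6 CPM in these barcodes. The level outside cells was thus lower than in cells for NIH/3T3 and higher for mESCs. A further 464 member UMIs, 2.30% of the 20194 in the pooled matrix, were absent from all 3 sample-resolved matrices.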

How the results depend on the processing

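Each value was recomputed with at least 2000 UMIs per cell, a 10% mitochondrial limit, cells called by the STARsolo default rule, all barcodes, the pooled matrix, without the 5% of cells with the most UMIs, without mitochondrial and ribosomal genes, and as the mean of per-cell CPM. Of 240 member ratios so obtained, 239 stayed within the counting interval, none of the called ratios turned direction, and the exception was B2m in mESCs over NIH/3T3 with all barcodes (0.0542, against 0.0479). Levels stayed within their counting intervals except B2m in NIH/3T3 with all barcodes (445 CPM), Psmb8 in N2a as the mean of per-cell CPM (27.7 CPM), and 9 of 30, all higher by construction, without mitochondrial and ribosomal genes. The 54 proteasome ratios under the opening 6 of these settings stayed within their intervals. The number of members past 2-fold stayed within 1.5 times under all 8 settings. Counts moved further only with other thresholds. With a minimum level of 20 CPM, only 4 members were counted between mESCs and NIH/3T3 (B2m, H2-D1, Tapbp and Erap1). All 4 were higher in NIH/3T3 and 0 in mESCs. Over all genes 1460 were higher in N2a than in NIH/3T3, 1562 in mESCs than in NIH/3T3 and 1555 in mESCs than in N2a. The genes higher in NIH/3T3 than in mESCs stayed within 1.5 times of the 2618 at 5 CPM. Shares of all genes at 20 CPM are not given here. With a minimum of 1 CPM, 4199 genes were higher in mESCs than in NIH/3T3. At 4-fold, 0 of 9 members were higher in NIH/3T3 than in N2a, against 1195 of 11812 genes, and 1427 of all genes were higher in N2a. Between mESCs and NIH/3T3, 1709 of 12067 genes were higher in mESCs and 1271 in NIH/3T3. Between mESCs and N2a, 1590 of 12245 genes were higher in mESCs and 1355 in N2a. Levels by depth are given with the shares of cells. Thinned shares moved with the thinning depth by construction, and 3 of 30 moved past their interval with another random seed and 6 of 30 with cells called by the STARsolo default rule. No paired analysis was possible because each line was 1 library and the labels carry no replicate numbers, and no replicate could be left out for the same reason. Depth limits H2-K1, Tap2, Psmb8, Psmb9 and Nlrc5 most, with 1 to 11 UMIs in some lines.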

Other observations

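Within mESCs, 67 cells held at least 3 UMIs of the 2-cell-stage genes Zscan4c, Zscan4d, Zscan4f and Tmem92, a set chosen after seeing the data. In these cells the members summed to 56.0 CPM (33.7 to 87.4), against 48.6 CPM (44.7 to 52.7) in the other 2070 mESCs. Nlrc5 had 4 of its 11 mESC UMIs in them, at 11.8 CPM (3.21 to 30.2) against 0.584 CPM (0.235 to 1.20), and B2m stood at 20.6 CPM against 22.1 CPM.

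The 116 mESCs without a Zfp42 UMI had a median of 1708.5 UMIs, against 5022 in the other mESCs. In them the members summed to 93.6 CPM (22 UMIs, 58.7 to 142), against 47.9 CPM (44.1 to 52.0) in the cells with Zfp42. B2m was not higher in them, at 17.0 CPM (4 UMIs, 4.64 to 43.6) against 22.2 CPM. Tapbp stood at 29.8 CPM (7 UMIs, 12.0 to 61.4) against 11.7 CPM, and every other member had 4 UMIs or fewer. Dppa5a stood at 1463 CPM and Tdgf1 at 264 CPM in the cells without Zfp42, both lower than in those with it (1828 and 478 CPM). Hand2 and Prrx1 had 1 UMI each in the cells without Zfp42. The part of depth and of transcripts from other lines in these values was not tested.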
